A study of Mus musculus with 12 samples.

Results

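Cells grown from mouse kidney were compared with mesenchymal stem cells (MSC) from mouse bone marrow, over all annotated genes whose probe was detected on all 4 arrays of at least one side. This took 9610 of the 10797 named genes tested, out of 18889 named genes with a probe on the array. Of the 9610 genes, 8695 were detected on all 8 arrays, 606 on all 4 kidney arrays but not on every bone marrow array, and 309 on all 4 bone marrow arrays but not on every kidney array.

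The series profiled cultured cells from kidney, heart and bone marrow on single-colour Illumina bead arrays, 4 arrays per tissue, with total RNA that was extracted without a DNase step, amplified and labelled with biotin. The kidney cells and the heart cells are labelled as MSC-like, and the bone marrow cells as classical MSC. No mutation or treatment is stated for any group, and the sources used here do not state strain, age, sex, passage, medium or how the cells were isolated. The 4 samples of a tissue are called biological replicates with no statement on animals or cultures, so the p-values measure only the spread between these samples.

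MSC are fibroblast-like cells that stick to plastic and can form bone, cartilage and fat in culture. Cells with these properties have been grown from many organs, where many of them lie around blood vessels and overlap with pericytes and vascular smooth muscle. In the kidney this compartment includes interstitial fibroblasts, pericytes, mesangial cells and renin cells, while in bone marrow it supplies the niche that holds blood stem cells.

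Each value below is a normalised log2 intensity, so that a difference of 1 is a doubling of signal, and levels are compared only between arrays for one probe. Mean raw intensity was 1004 to 1049 over the kidney arrays and 754 to 950 over those of bone marrow, with the minimum for its replicate 1. This array also stood apart in its pattern: its mean correlation over the tested genes with the other bone marrow arrays was 0.9862. Among bone marrow replicates 2 to 4 it was 0.9936, and 0.9938 among the kidney arrays. The mean correlation between a kidney and a bone marrow array was 0.9586. Calls and list counts that changed markedly without bone marrow replicate 1 are therefore given both ways where they are described.

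Of the 9610 genes, 2104 were higher and 2557 were lower in kidney cells at a Benjamini-Hochberg adjusted p under 0.05 (limma, adjusted over all 10797 genes). Over all genes tested, 44.2% passed this threshold, 19.9% as higher and 24.3% as lower, so a shared direction in a gene list has to be read against those shares. Most of these changes were small, since 2610 of the 4661 genes that passed changed by less than 1.5-fold. At least 2-fold higher in kidney cells were 527 genes and at least 2-fold lower 372, where 4.9% and 3.56% of all genes tested reached this size. Without background correction the counts of this size over all genes tested were 322 higher and 204 lower, against 529 and 384 with it. The kidney and bone marrow values did not overlap for 4032 genes, and this held for 38% of all genes tested. The split between higher and lower depends on the scaling: with arrays shifted to a common median, 60.6% of the calls over all genes were higher in kidney cells, against 45.1% under quantile normalization.

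**Figure D1:**
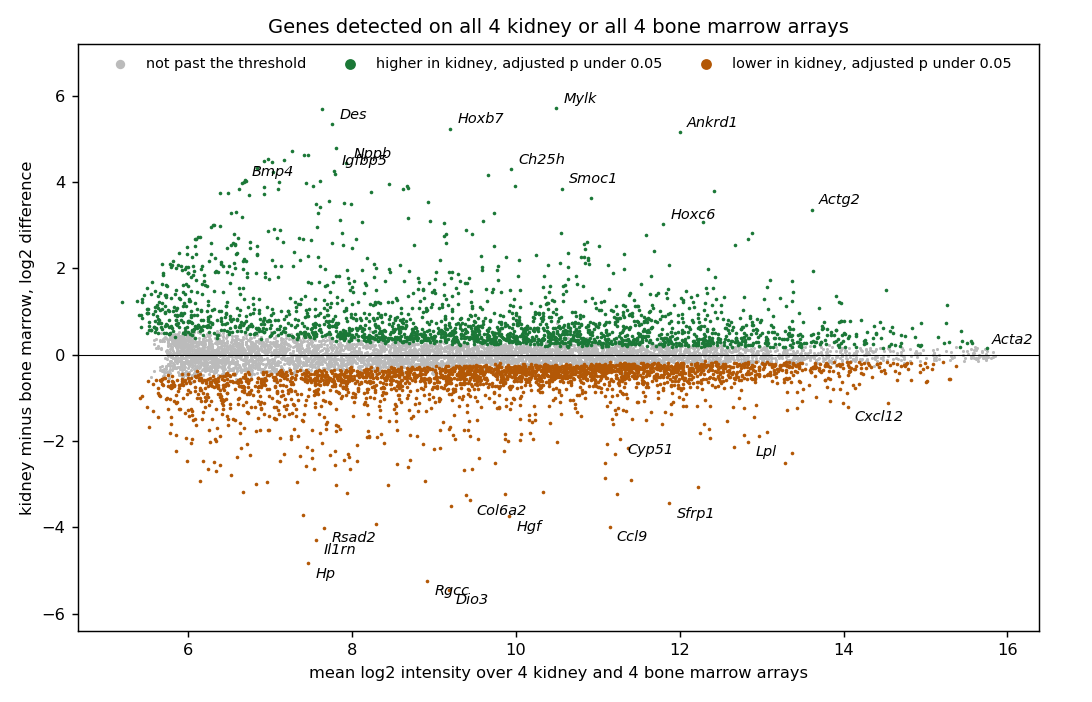
Difference between kidney cells and bone marrow MSC (y axis, log2) against the mean over the 8 arrays (x axis, normalised log2 intensity) for each of the 9610 genes, green where higher and orange where lower in kidney cells at an adjusted p under 0.05. Mylk, Des, Hoxb7 and Ankrd1 stand at the top, Dio3 and Rgcc at the bottom, and most of the coloured points lie close to 0.

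Both cell types carried mesenchymal surface genes, and the levels of several differed. Cd44, the hyaluronan receptor, measured 14.19, 13.90, 13.76 and 13.90 on the kidney arrays, against 13.89, 13.75, 13.67 and 13.53 on the bone marrow arrays, and did not pass the test (log2 difference 0.23 ± 0.10 SE, adjusted p = 0.0635). Cd44 passed without bone marrow replicate 1 (0.29 ± 0.09, adjusted p = 0.0120). Eng, the TGF-beta co-receptor endoglin, did not pass either (0.16 ± 0.09, adjusted p = 0.165). Of the 20 MSC surface antigens tested, 8 were higher in kidney cells, 5 were lower and 7 did not pass the test. Mcam, the adhesion protein CD146 of perivascular cells, stood highest among those that rose, with 11.28, 11.26, 11.42 and 11.56 on the kidney arrays against 8.12, 8.05, 8.15 and 8.03 on the bone marrow arrays. The groups lay far apart (3.29 ± 0.11, adjusted p = 4.87e-15). Pdgfra, a PDGF receptor of fibroblasts and marrow stroma, measured 9.95, 10.37, 10.63 and 10.22 in kidney cells and 11.76, 12.54, 12.70 and 12.80 in bone marrow MSC. All kidney values were lower, with bone marrow replicate 1 the lowest of its group (-2.15 ± 0.17, adjusted p = 4.22e-09). Thy1, another antigen used to define MSC, was lower by a smaller amount (-0.77 ± 0.08, adjusted p = 1.33e-07), and Pdgfrb, the PDGF receptor of pericytes, overlapped between the groups (-0.44 ± 0.18, adjusted p = 0.0528). Pdgfrb passed without bone marrow replicate 1 (-0.65 ± 0.13, adjusted p = 0.000211).

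Many markers of other cell types were at background. Of 25 macrophage and monocyte genes with a probe, 15 were detected on none of the 8 arrays, among them Ptprc (CD45), Itgam and Tyrobp. Of the 8 tested, none rose and 2 fell. These were Cd14, the endotoxin co-receptor, with 7.72 to 8.23 on the kidney arrays and 9.38 to 9.51 on the bone marrow arrays (-1.46 ± 0.12), and Trem2, a myeloid receptor that was below detection on all kidney arrays (at least 2.13-fold lower). The mean over the tested list was 6.56 to 6.68 in kidney cells and 6.81 to 7.16 in bone marrow MSC. Among endothelial genes, Kdr and Vwf were on no array of the 8, and of 7 tested genes 2 rose and 1 fell (2 fell without bone marrow replicate 1). Emcn, the endothelial sialomucin endomucin, measured 8.57, 8.60, 8.68 and 8.78 on the kidney arrays and was detected on no bone marrow or heart array (at least 7.96-fold higher than in bone marrow MSC, adjusted p = 4.36e-14). Flt1, a VEGF receptor, rose as well (2.90 ± 0.10, adjusted p = 1.10e-14).

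Of 21 nephron epithelial genes with a probe, 8 were on no array of the 8, and of the 8 that were tested 4 rose and none fell (1 fell without bone marrow replicate 1). The share that passed was 50%, against 44.2% of all genes tested. Only 4 of the tested genes were detected on all 8 arrays, of which 2 rose. For the rest, the detection filter itself favours the side where a gene is high. Epcam and Krt18, which define epithelia more broadly, were also on no array, and 1 of 6 tested general epithelial genes rose (2 without bone marrow replicate 1). Lrp2, the endocytic receptor megalin of the proximal tubule, measured 7.95, 7.92, 7.51 and 7.64 in kidney cells and was below detection in bone marrow MSC (at least 4.28-fold higher, adjusted p = 3.46e-12). Aqp1, a water channel of the proximal tubule and of some endothelia, measured 10.55 to 10.70 in kidney cells and 7.22 to 8.36 in bone marrow MSC (3.06 ± 0.16), and was higher still in heart cells, at 12.93 ± 0.09 (SD, n = 4). Cdh6, a cadherin of the developing proximal tubule, was detected on all kidney arrays and on no bone marrow or heart array, at 6.01 to 6.62 (at least 1.58-fold higher). Upk1b, a uroplakin of urothelium that mesothelium also makes, measured 8.22 to 8.49 in kidney cells and was below detection in bone marrow MSC (at least 6.53-fold higher, adjusted p = 1.27e-13). The part of such cells in the differences given below was not tested. In bulk RNA, fewer cells of a type and less RNA per cell cannot be told apart.

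Genes of the smooth muscle contractile apparatus were higher in kidney cells. In this apparatus myosin slides along actin after phosphorylation of its light chain, and serum response factor with its partner myocardin switches many of the genes on. Of 17 tested genes of the list, 15 rose, none fell and 2 did not pass, with a median difference of 1.47, against -0.04 over all genes tested. Of the 12 list members detected on all 8 arrays, 11 rose. Mylk, which encodes myosin light chain kinase, had the largest fitted difference upward of all 9610 genes. It measured 13.37, 13.31, 13.29 and 13.42 on the kidney arrays, against 6.60, 7.92, 7.97 and 8.07 on the bone marrow arrays. The kidney values lay close together and far above all bone marrow values, of which replicate 1 was the lowest (5.71 ± 0.21, adjusted p = 2.50e-14). Without that array the difference was 5.36 ± 0.08, smaller than that of Ccdc68, a centriole protein, at 5.65 ± 0.13. Des, the muscle intermediate filament desmin, measured 10.52, 10.50, 10.36 and 10.35 in kidney cells and 4.965, 5.003, 5.238 and 5.168 in bone marrow MSC, where it was below detection on every array. The difference came to at least 27.3-fold (adjusted p = 1.66e-17). Myh11, the smooth muscle myosin heavy chain, gave 9.10, 9.22, 9.16 and 9.53 against 4.73, 4.72, 4.62 and 5.13, again with no bone marrow array above background (at least 12.05-fold higher, adjusted p = 5.49e-15).

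The thin filament genes of the list rose too, by smaller amounts. Actg2, the enteric smooth muscle actin, measured 15.34, 15.14, 15.34 and 15.36 in kidney cells and 11.98, 11.95, 11.95 and 11.86 in bone marrow MSC (3.36 ± 0.07, adjusted p = 2.72e-18). Tagln, the actin-binding protein transgelin, measured 12.91 to 13.12 against 9.95 to 10.46 (2.77 ± 0.09). Lmod1, the actin nucleator leiomodin of smooth muscle, rose by 2.74 ± 0.11 and Cald1, caldesmon, by 2.05 ± 0.16. Smaller rises were those of Myl9, the regulatory light chain (1.95 ± 0.07), Csrp1 (1.21 ± 0.07), Tpm2, a tropomyosin (1.20 ± 0.08), and Smtn, smoothelin (1.14 ± 0.09). Cnn1, calponin, was dim, at 5.78 to 6.48 in kidney cells, and below detection in bone marrow MSC (at least 1.26-fold higher). Myocd, which encodes myocardin itself, measured 6.93, 6.45, 7.02 and 6.71 in kidney cells and was detected on 1 of 4 bone marrow arrays (at least 2.15-fold higher, adjusted p = 4.98e-06). Acta2, the smooth muscle actin most used as a myofibroblast marker, did not pass: it measured 15.66, 15.88, 15.80 and 15.79 against 15.78, 15.59, 15.62 and 15.66 (0.12 ± 0.06, adjusted p = 0.120). Its raw signal reached 60714, where the brightest probe on these 8 arrays gave 62841. With the mean of its probes in place of the brightest one, Acta2 passed (0.69 ± 0.06, adjusted p = 1.06e-07), as it did with the brightest probe and no bone marrow replicate 1 (0.16 ± 0.06, adjusted p = 0.0366).

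**Figure D2:**
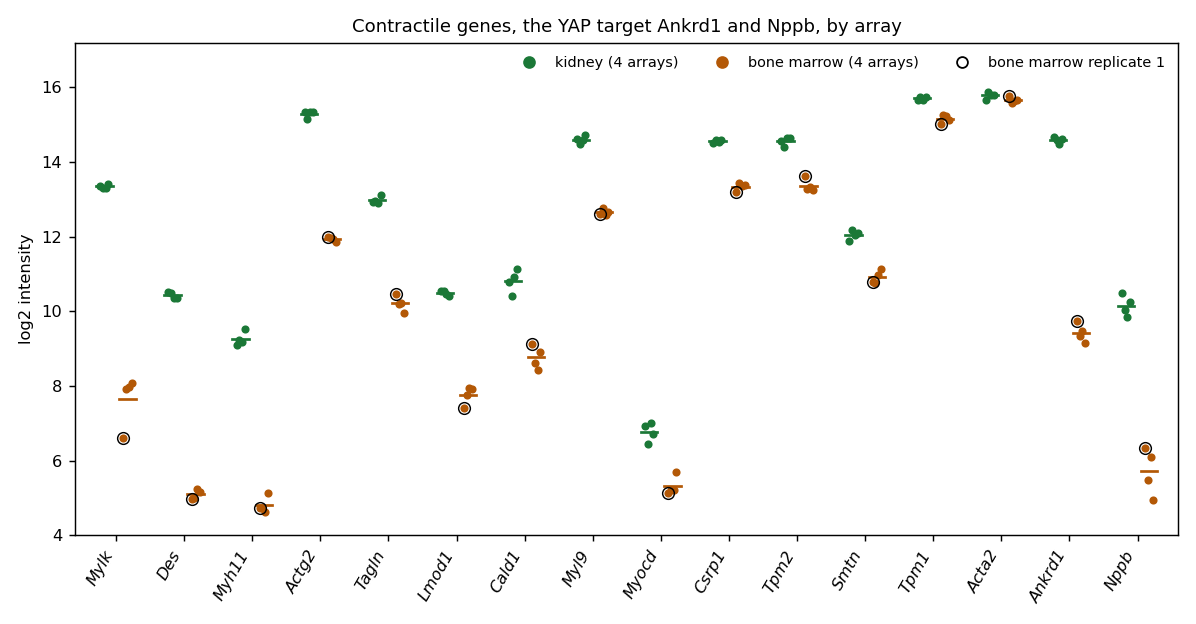
Normalised log2 intensity (y axis) of contractile genes, Ankrd1 and Nppb (x axis) on each of the 4 kidney and 4 bone marrow arrays, with a bar at each group's mean and a ring around bone marrow replicate 1. The kidney points lie well above the bone marrow points for Mylk, Des and Myh11, while for Acta2 the points overlap.

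The heart cells allow the kidney values to be placed. Mylk was at 11.20 ± 0.13 and Des at 7.80 ± 0.15 in heart cells (SD, n = 4), in both cases between kidney cells and bone marrow MSC. Kidney cells exceeded heart cells by 2.15 for Mylk (adjusted p = 4.85e-08), by 2.63 for Des (adjusted p = 7.10e-13) and by 2.16 for Actg2 (adjusted p = 1.55e-15). For Myh11 (0.24, adjusted p = 0.198), Lmod1 (0.21, adjusted p = 0.137) and Cald1 (0.21, adjusted p = 0.318) the difference between kidney and heart cells did not pass the test.

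Start-site windows of the most changed contractile genes with a RefSeq entry are printed because these genes moved together and share a known regulator. Each window runs from 250 bases before to 50 bases after the start (RefSeq, GRCm38.p6, plus strand for both): Mylk at chr16:34784700-34784999 and Des at chr1:75360042-75360341. No base is capitalised, since neither holds an exact CArG box, the binding element of serum response factor, on either strand. The form searched was CCWWWWWWGG, where W is A or T.
Mylk: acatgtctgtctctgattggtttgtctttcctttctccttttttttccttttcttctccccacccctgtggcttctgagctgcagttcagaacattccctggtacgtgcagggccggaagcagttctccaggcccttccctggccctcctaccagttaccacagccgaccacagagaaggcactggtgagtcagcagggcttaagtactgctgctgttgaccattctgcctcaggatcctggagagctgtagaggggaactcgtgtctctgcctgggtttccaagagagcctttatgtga
Des: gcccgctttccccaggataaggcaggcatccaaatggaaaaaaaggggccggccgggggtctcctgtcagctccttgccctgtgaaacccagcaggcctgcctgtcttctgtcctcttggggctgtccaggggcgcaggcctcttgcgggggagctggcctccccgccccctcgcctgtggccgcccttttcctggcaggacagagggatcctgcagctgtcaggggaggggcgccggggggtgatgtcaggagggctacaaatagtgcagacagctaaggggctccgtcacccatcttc
The same search found no CArG box in the windows of Lmod1 and Cald1. It found one in 2 of the 13 contractile genes with a window (15.4%), namely Cnn2 and Myl9, and in 535 of all 32817 windows (1.63%). A gene was counted if any of its windows held a match, while the share over all windows counts single ones. These windows hold only the stretch next to the annotated start. Looser forms of the element were not searched, and nothing about the factor follows from the letters.

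Genes that respond to actin tension rose in part. Of 13 tested genes for the actin cytoskeleton and its serum response factor axis 9 rose and none fell, with a median of 0.50. Pdlim5, an actin-associated adaptor, changed most (1.59 ± 0.09, adjusted p = 2.36e-11), and Srf itself rose by 0.59 ± 0.08. Of 14 tested targets of YAP, the transcriptional coactivator that reads stretch, 10 rose and 1 fell. Ankrd1, an ankyrin-repeat protein of stretched muscle and a widely used YAP target, measured 14.66, 14.59, 14.47 and 14.61 in kidney cells, against 9.73, 9.34, 9.46 and 9.15 in bone marrow MSC. The groups were separated on every array (5.16 ± 0.10, adjusted p = 2.72e-18). The other classic targets moved far less: Ccn1 rose by 0.90 ± 0.09 and Ccn2, connective tissue growth factor, by 0.27 ± 0.07.

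Hox genes set kidney cells apart from bone marrow MSC. These homeodomain factors lie in 4 clusters, are switched on in order along the body axis of the embryo, and often stay on in fibroblasts grown from adult organs, with low group numbers in front and high numbers toward the tail and limb ends. All 8 tested genes of paralogue groups 1 to 5 were higher in kidney cells (median 2.16), as were 7 of 9 in groups 6 to 9, with none lower. Only 3 genes of groups 1 to 5 were detected on all 8 arrays, all 3 higher. In groups 6 to 9 it was 6 genes, of which 4 were higher. For the rest, the detection filter itself favours the side where a gene is high. Of the 6 tested genes in groups 10 to 13, 2 were higher, 3 were lower and 1 did not pass. Without bone marrow replicate 1 the counts were 8 of 8 and 7 of 9 higher, then 2 higher and 4 lower.

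The largest Hox differences came from the Hoxb cluster. Hoxb7 measured 12.05, 11.77, 11.67 and 11.78 in kidney cells and 6.55, 6.63, 6.71 and 6.42 in bone marrow MSC. No value of one group came near the other (5.24 ± 0.10, adjusted p = 2.72e-18). Hoxb2 measured 10.49, 10.21, 10.02 and 10.09 against 5.91, 5.24, 5.24 and 5.24, with replicate 1 as the sole bone marrow array above background (at least 22.4-fold higher, adjusted p = 1.97e-15). Hoxb4 (at least 10.2-fold), Hoxb6 (at least 7.69-fold) and Hoxb9 (at least 3.45-fold) were detected on all kidney arrays and on no bone marrow array. Hoxb5 rose by 3.51 ± 0.21, and Hoxb3 overlapped between the groups although it passed (at least 1.33-fold, adjusted p = 0.00983).

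Genes of the Hoxa, Hoxc and Hoxd clusters were mixed. Hoxc6 measured 13.42, 13.18, 13.33 and 13.34 in kidney cells and 10.22, 10.25, 10.39 and 10.28 in bone marrow MSC (3.03 ± 0.11, adjusted p = 1.92e-14). Hoxa5 was higher by 2.33 ± 0.07, and Hoxc9 by only 0.81 ± 0.10. Hoxd10 measured 7.83, 7.72, 7.91 and 7.82 in kidney cells, and no bone marrow or heart array detected it (at least 4.46-fold higher, adjusted p = 6.98e-12). Hoxd8 (-0.02 ± 0.12, adjusted p = 0.925) and Hoxa9 (-0.06 ± 0.17, adjusted p = 0.815) had overlapping values in the 2 tissues. Lower in kidney cells were Hoxa10, with 5.30, 5.30, 5.84 and 6.23 against 6.49, 6.80, 6.80 and 6.87 (-1.07 ± 0.21, adjusted p = 2.66e-04), Hoxc13 (-0.75 ± 0.17) and Hoxc11 (at least 1.46-fold lower).

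**Figure D3:**
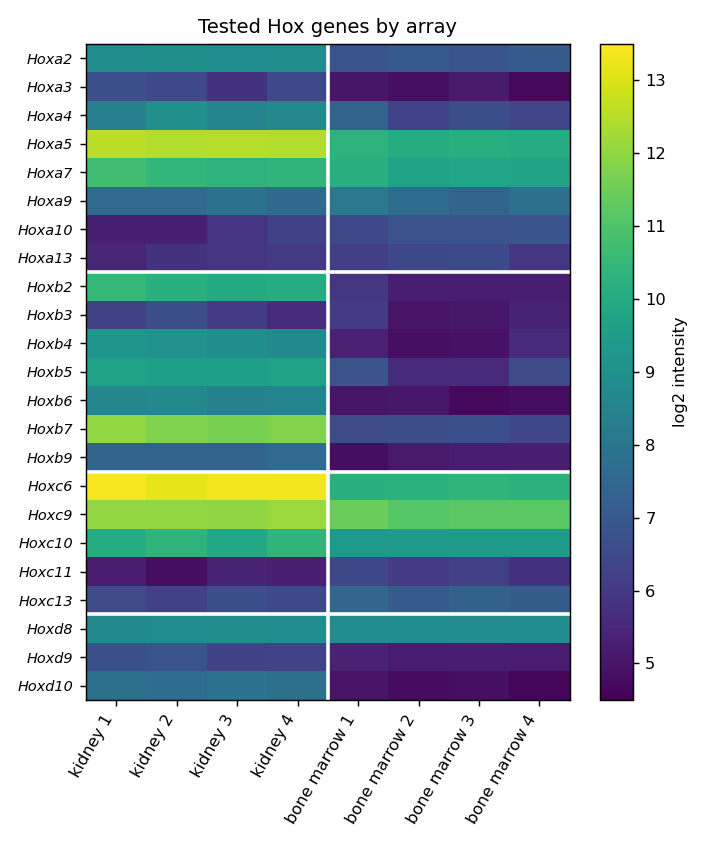
Normalised log2 intensity (colour scale) of each tested Hox gene (y axis, by cluster) on the 4 kidney and 4 bone marrow arrays (x axis). Hoxb2, Hoxb4, Hoxb7 and Hoxd10 are brighter on the kidney arrays than on the bone marrow arrays, Hoxd8 has the same colour in both, and Hoxa10 and Hoxc11 are darker in kidney cells.

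Heart cells carried many of the low-numbered Hox genes, while Hoxa10, Hoxb9, Hoxc9, Hoxc10, Hoxc11, Hoxc13, Hoxd8, Hoxd9 and Hoxd10 were on no heart array. Hoxb2 was at 9.998 ± 0.10 in heart cells and did not differ from kidney cells beyond the threshold (0.20, adjusted p = 0.270), and Hoxb4 and Hoxa5 were lower in kidney than in heart cells, by -1.06 and -0.71. Hoxc6, which all heart arrays detected, was 6.05 higher in kidney cells than in heart cells (adjusted p = 7.90e-19). Hoxc9 and Hoxc10 were detected on all kidney and all bone marrow arrays, with a difference between those tissues of 0.81 and 0.77.

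Transcription factors of kidney development did not move together. Of 15 tested factors of kidney stroma and nephron, 4 rose, 6 fell and 5 did not pass. Gata3, a zinc-finger factor of the nephric duct and of mesangial cells, measured 8.06, 8.27, 7.67 and 7.99 in kidney cells and 5.15 to 5.83 in bone marrow MSC (detected on 2 of 4 arrays there, at least 4.87-fold higher, adjusted p = 1.64e-09). Foxc2, a forkhead factor of kidney and somite mesoderm, rose by 1.78 ± 0.15. Osr1, a marker of early kidney mesoderm, was lower in kidney cells, with 6.42 to 7.10 against 7.98 to 8.33 (-1.37 ± 0.15, adjusted p = 2.23e-07), and its relative Osr2 moved alike (-1.36 ± 0.14). Outside this list, Tbx15, a T-box factor of limb and craniofacial mesenchyme, measured 7.01, 6.96, 6.97 and 7.09 in kidney cells and 9.01, 9.15, 9.07 and 9.22 in bone marrow MSC (-2.10 ± 0.12, adjusted p = 1.38e-11). Shox2, a limb and skeletal factor, fell by a similar amount (-1.88 ± 0.16). Mef2c, a myogenic MADS-box factor, was below detection in bone marrow MSC and measured 6.82 to 7.09 in kidney cells (at least 2.45-fold higher).

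Some genes of perivascular cells and of the control of vessel tone were higher. Of 17 tested mesangial, renin-lineage and pericyte genes, 6 rose, 1 fell and 10 did not pass, against 7 and 2 without bone marrow replicate 1. The share of this list that passed was 41.2%, near the 44.2% of all genes tested, and its median difference was 0.11. Nes, the intermediate filament nestin of pericytes and podocytes, measured 10.35, 10.67, 10.55 and 10.88 in kidney cells and 7.01, 6.46, 6.82 and 6.73 in bone marrow MSC, with a wide gap between the groups (3.86 ± 0.18, adjusted p = 9.35e-13). Cspg4, the pericyte proteoglycan NG2, rose by 1.49 ± 0.16, and Rgs4, a brake on G protein signalling, by 1.11 ± 0.15. The cyclic GMP arm that relaxes smooth muscle was higher at both steps measured, Gucy1b1 of soluble guanylate cyclase (at least 2.60-fold) and Prkg1, its kinase (1.87 ± 0.12).

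Of 22 tested genes of prostaglandin and vasoactive signalling 11 rose, 3 fell and 8 did not pass, and with bone marrow replicate 1 left out 10 rose and 5 fell. Nppb, the natriuretic peptide BNP, measured 10.48, 10.02, 9.86 and 10.24 in kidney cells and 6.35, 5.47, 6.10 and 4.94 in bone marrow MSC, detected on 2 arrays there (4.44 ± 0.22, adjusted p = 3.78e-12). In heart cells, the organ known for this peptide, it was at 6.94 ± 0.13 (SD, n = 4), and kidney cells were 3.21 higher (adjusted p = 4.19e-10). Avpr1a, the vasopressin receptor of smooth muscle and mesangium, measured 10.57 to 10.85 against 7.04 to 7.25 (3.54 ± 0.11, adjusted p = 4.52e-15). Edn1, the vasoconstrictor endothelin, rose by 1.97 ± 0.15, and Ptgs2, the inducible cyclooxygenase, by 1.66 ± 0.15. Ednrb, an endothelin receptor, went the other way: it was below detection on all kidney arrays and measured 5.58, 7.09, 7.13 and 7.36 on the bone marrow arrays (at least 2.28-fold lower).

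Growth factor genes showed a different supply of ligands. BMP and TGF-beta ligands are secreted dimers that steer mesenchyme toward bone, cartilage or smooth muscle, and soluble antagonists trap them. Of 9 tested ligand genes 5 rose and none fell, but 2 fell when bone marrow replicate 1 was left out. Bmp4 measured 8.52, 8.69, 8.72 and 8.82 in kidney cells and was below detection on every bone marrow array, at 4.53, 4.57, 4.74 and 4.90 (at least 8.16-fold higher, adjusted p = 1.04e-13). Tgfb3 rose by 2.20 ± 0.10, Tgfb2 by 1.51 ± 0.12 and Inhba, the activin subunit, by 1.25 ± 0.10. Of the 7 tested antagonists 5 also rose, led by Bmper (2.09 ± 0.12) and Fst, which binds activin (1.58 ± 0.11). Tgfbr3, the co-receptor betaglycan, was lower, with 8.48 to 8.91 in kidney cells and 10.07, 11.16, 11.30 and 11.40 in bone marrow MSC (-2.24 ± 0.21, adjusted p = 4.68e-08).

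The IGF axis was split. IGF binding proteins hold the growth factor in the matrix, and proteases such as PAPP-A release it. Igfbp5 measured 9.91, 9.87, 9.96 and 9.92 in kidney cells and 6.01, 5.43, 5.65 and 5.52 in bone marrow MSC (detected on 1 bone marrow array, at least 18.1-fold higher, adjusted p = 1.70e-14). Igfbp2 rose by 3.84 ± 0.15 and Pappa by 2.26 ± 0.17. Igfbp4 went down, with 11.38 to 11.76 against 13.59 to 13.79 (-2.13 ± 0.09, adjusted p = 1.41e-13), as did Stc1, a stanniocalcin that inhibits PAPP-A (-1.84 ± 0.14). Over the list, 6 of 13 tested genes rose, 4 fell and 3 did not pass.

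Other secreted factors went both ways. Of 14 tested PDGF, VEGF and HGF factors 5 rose and 5 fell, of 14 tested FGF pathway genes 4 rose and 2 fell, and of 4 tested secreted Wnt inhibitors none rose and 2 fell. Hgf, hepatocyte growth factor, measured 7.97, 8.10, 8.10 and 8.01 in kidney cells and 11.40, 11.95, 11.91 and 11.90 in bone marrow MSC, with bone marrow replicate 1 the lowest of its tight group (-3.74 ± 0.11, adjusted p = 1.65e-15). Sfrp1, a secreted Wnt inhibitor, measured 9.92, 10.31, 10.24 and 10.14 against 12.11, 13.84, 14.06 and 14.38 (-3.44 ± 0.32, adjusted p = 3.63e-08). Without bone marrow replicate 1 the difference in Sfrp1 was -3.94 ± 0.16. In the Notch pathway, where cell contact releases a nuclear coactivator, the target gene Hey2 was detected on all kidney arrays (6.88, 7.27, 7.52 and 7.70) and on no bone marrow or heart array (at least 3.21-fold higher, adjusted p = 1.23e-09). Its relative Hey1 rose by 1.67 ± 0.15, while Hes1, another target, fell by a small amount (-0.33 ± 0.09, adjusted p = 0.00395).

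Matrix genes changed in kind more than in one direction. Of 13 tested interstitial collagen genes 2 rose, 3 fell and 8 did not pass, Col1a1 among them (0.07 ± 0.16, adjusted p = 0.763). Leaving out bone marrow replicate 1 gave 2 higher and 5 lower, and the list's median was then -0.14, against 0.03 with it. Col6a2, a chain of the microfibrillar collagen VI, measured 7.58, 7.84, 7.93 and 7.64 in kidney cells and 9.94, 11.21, 11.36 and 11.996 in bone marrow MSC (-3.38 ± 0.26, adjusted p = 2.18e-09), and without bone marrow replicate 1 the difference was -3.78 ± 0.14. Its partner chain Col6a1 fell by 2.51 on the log2 scale (SE 0.21), and in both genes bone marrow replicate 1 was the lowest of its group. Col8a1, a short-chain collagen of vessel walls, rose by 1.55 ± 0.09. Basement membrane genes were mostly higher, 8 of 15 tested with 1 lower (2 lower without bone marrow replicate 1), for example Col4a5, a collagen chain of the glomerular basement membrane (1.26 ± 0.09), and Col4a1 (0.72 ± 0.08).

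Among secreted matrix modulators, Smoc1, a calcium-binding BMP modulator, measured 12.42, 12.55, 12.56 and 12.38 in kidney cells and 8.60, 8.81, 8.53 and 8.61 in bone marrow MSC (3.84 ± 0.09, adjusted p = 1.66e-17). Thbs1, thrombospondin, rose by 1.81 ± 0.11 and Timp3, a matrix-bound inhibitor of metalloproteinases, by 2.81 ± 0.10. Tgfbi, a TGF-beta-induced adhesion protein, measured 10.71, 10.66, 10.81 and 10.57 against 13.16, 14.03, 13.91 and 13.97 (-3.08 ± 0.14, adjusted p = 4.07e-13). Of 17 tested integrins 9 rose and 2 fell. Itga11, a collagen receptor of fibroblasts, measured 12.59, 12.75, 12.86 and 12.71 in kidney cells and 8.13, 9.12, 9.43 and 9.76 in bone marrow MSC (3.62 ± 0.22, adjusted p = 5.65e-11), and the second collagen receptor Itga1 rose by 2.19 ± 0.18.

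Genes tied to the marrow's own tasks went both ways. Of 14 tested marrow niche factors 5 were higher in kidney cells, 4 of them by at least 2-fold, and 8 were lower, 3 of them by at least 2-fold. Among those higher were Bmp4, Nes and Csf1, described under other lists. Cxcl12, the chemokine that holds blood stem cells in the niche, measured 13.56, 13.46, 13.31 and 13.45 in kidney cells and 13.76, 14.85, 14.87 and 15.14 in bone marrow MSC, where replicate 1 lay nearer to the kidney values than to its own group (-1.21 ± 0.18, adjusted p = 2.18e-05). Without that array the difference was -1.51 ± 0.08. Ptn, the niche factor pleiotrophin, fell by 1.82 on the log2 scale (SE 0.08). Angpt1, a ligand that keeps stem cells quiet, was below detection on all kidney arrays (at least 2.22-fold lower). Tnfrsf11b, the decoy receptor osteoprotegerin, was higher in kidney cells (2.45 ± 0.11). Of the bone cell genes, 2 of 7 tested fell and none rose: Sp7, the osteoblast factor osterix, measured 6.05 to 6.19 against 7.78 to 7.97 (-1.75 ± 0.15, adjusted p = 9.81e-09), and Alpl, alkaline phosphatase, was at least 1.47-fold lower. The share of bone cell genes that passed was 28.6%, below the 44.2% of all genes tested. Their counts depended on the processing. The authors' values gave 2 higher and 2 lower, and averaging over all kept probes per gene gave 2 higher and 4 lower. Among 10 tested fat cell genes 4 fell and 2 rose. Lpl, lipoprotein lipase, fell by 2.02 on the log2 scale (SE 0.16), while Pparg, the master factor of fat cells, overlapped between the groups (-0.11 ± 0.17, adjusted p = 0.624).

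Interferon-stimulated genes were lower in kidney cells. Cells that sense viral nucleic acid or interferon switch these genes on through the STAT and IRF factors, which bind an element called the interferon-stimulated response element (ISRE). Of 21 tested effector genes 19 fell and none rose, with a median of -2.45, and all 7 tested sensing and signalling genes fell (median -1.84). Of the 13 effectors detected on all 8 arrays, 12 fell. The mean over the effectors was 7.70 to 7.95 on the kidney arrays, 8.77 for bone marrow replicate 1 and 10.03 to 10.61 for the remaining bone marrow arrays. Bone marrow replicate 1 thus lay between the kidney arrays and its own group. Without it 20 effectors fell, with a median of -2.98, and all 7 sensing genes (median -2.15).

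Rsad2, the antiviral enzyme viperin, measured 6.02, 5.45, 5.39 and 5.76 in kidney cells and 8.71, 9.96, 9.92 and 10.09 in bone marrow MSC (-4.02 ± 0.26, adjusted p = 1.36e-10). Dhx58, the RNA sensor LGP2, gave 5.13, 5.80, 5.96 and 5.26 against 7.42, 9.56, 9.91 and 10.17 (at least 11.5-fold lower, adjusted p = 2.38e-07). Both genes were detected on only 2 of the 4 kidney arrays, and without bone marrow replicate 1 Rsad2 differed by -4.34 ± 0.20. Oasl2, a relative of the oligoadenylate synthetases, measured 7.14, 7.15, 8.02 and 7.51 against 9.11, 11.32, 11.45 and 11.98 (-3.51 ± 0.42, adjusted p = 9.38e-07). Ifit3, an inhibitor of viral translation, measured 8.54 to 8.88 against 10.52, 12.16, 12.21 and 12.79 (-3.18 ± 0.30), and Igtp, an interferon-induced GTPase, 6.06 to 6.93 against 8.04, 9.79, 9.95 and 10.38 (-3.21 ± 0.33). In each gene all bone marrow values exceeded all kidney values, and replicate 1 was the lowest of its group. Irf7, the factor that amplifies the response, was detected on no kidney or heart array and on all bone marrow arrays, at 5.78, 7.94, 8.10 and 8.87 (at least 4.22-fold lower, adjusted p = 3.95e-05). Irf9 fell by 1.84 on the log2 scale (SE 0.19) and Isg15, a ubiquitin-like modifier, by 2.66 (SE 0.32). Kidney cells were below heart cells for Igtp (-1.22, adjusted p = 0.00446) and Rsad2 (-0.65, adjusted p = 0.0420). The difference between kidney and heart cells did not pass for Ifit3 (-0.69, adjusted p = 0.0611) and Dhx58 (-0.34, adjusted p = 0.512). It did not pass for Oasl2 (0.70, adjusted p = 0.178) and Isg15 (0.67, adjusted p = 0.0916) either.

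The windows around the starts of 4 of the most changed interferon genes are printed with each ISRE, searched as GAAANNGAAA on both strands, in capitals (RefSeq, GRCm38.p6). They lie at chr12:26456403-26456702 for Rsad2 (minus strand), chr5:114896684-114896983 for Oasl2 (plus), chr11:58199306-58199605 for Igtp (plus) and chr19:34583279-34583578 for Ifit3 (plus). A match on the opposite strand reads as TTTCNNTTTC.
Rsad2: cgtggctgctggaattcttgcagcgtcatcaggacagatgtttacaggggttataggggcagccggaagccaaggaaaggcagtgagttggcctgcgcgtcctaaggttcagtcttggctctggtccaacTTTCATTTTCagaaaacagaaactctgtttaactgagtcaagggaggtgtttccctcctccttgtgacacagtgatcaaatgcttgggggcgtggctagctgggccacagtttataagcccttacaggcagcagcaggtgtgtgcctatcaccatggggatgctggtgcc
Oasl2: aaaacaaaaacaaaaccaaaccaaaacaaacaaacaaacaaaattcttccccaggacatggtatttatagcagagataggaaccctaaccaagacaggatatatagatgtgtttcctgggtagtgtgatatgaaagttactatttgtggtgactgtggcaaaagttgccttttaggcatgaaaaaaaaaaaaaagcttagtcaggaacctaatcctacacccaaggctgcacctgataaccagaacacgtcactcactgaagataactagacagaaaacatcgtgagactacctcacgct
Igtp: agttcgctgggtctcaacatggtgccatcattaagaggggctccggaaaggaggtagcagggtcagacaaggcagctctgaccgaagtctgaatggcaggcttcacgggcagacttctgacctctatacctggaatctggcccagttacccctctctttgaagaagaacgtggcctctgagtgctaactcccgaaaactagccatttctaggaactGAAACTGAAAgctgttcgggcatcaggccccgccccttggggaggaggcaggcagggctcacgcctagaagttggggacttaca
Ifit3: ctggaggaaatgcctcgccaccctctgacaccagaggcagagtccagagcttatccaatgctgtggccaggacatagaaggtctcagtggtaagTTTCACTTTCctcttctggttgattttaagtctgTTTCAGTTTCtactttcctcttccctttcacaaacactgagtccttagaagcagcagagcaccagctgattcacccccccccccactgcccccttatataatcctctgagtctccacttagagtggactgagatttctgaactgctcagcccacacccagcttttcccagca
Ifit3 holds 2 matches, at 156 and 122 bases before the start, Rsad2 holds 1 and Igtp 1, and Oasl2 holds none in this window. Among tested genes of both interferon lists with a window, 12 of 21 held the element (57.1%), and 1126 of all 32817 windows did (3.43%). The first share counts a gene with a match in any of its windows, while the second counts single windows. A match is a run of letters and does not show that a factor was bound in these cells.

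Antigen presentation and chemokine genes followed the same direction. Of 12 tested genes of MHC class I presentation 9 fell and none rose, with a median of -0.73, for example Psmb8 of the immunoproteasome (-2.38 ± 0.29, adjusted p = 1.12e-06), while B2m, the shared light chain, did not pass (-0.05 ± 0.06, adjusted p = 0.605). Of 18 tested chemokines and cytokines 13 fell and 2 rose (1 rose without bone marrow replicate 1). Ccl9, a chemokine for myeloid cells, measured 9.17, 8.99, 9.29 and 9.15 in kidney cells and 12.001, 13.59, 13.30 and 13.67 in bone marrow MSC (-3.99 ± 0.24, adjusted p = 4.34e-11). Il1rn, the interleukin-1 receptor antagonist, was below detection on all kidney arrays and measured 8.77, 9.93, 9.96 and 10.18 on the bone marrow arrays (at least 17.3-fold lower, adjusted p = 3.78e-12). Cxcl10, a chemokine that interferon induces, was at least 6.81-fold lower. Csf1, the macrophage growth factor, was one of the 2 that rose (1.11 ± 0.10). Hp, the acute-phase protein haptoglobin, measured 4.74, 4.97, 5.71 and 4.78 against 8.11, 10.48, 10.36 and 10.61 (detected on 1 of 4 kidney arrays, at least 19.1-fold lower, adjusted p = 1.85e-08), and 6 of 10 tested complement genes fell with none higher, led by C2 (-2.55 ± 0.37).

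**Figure D4:**
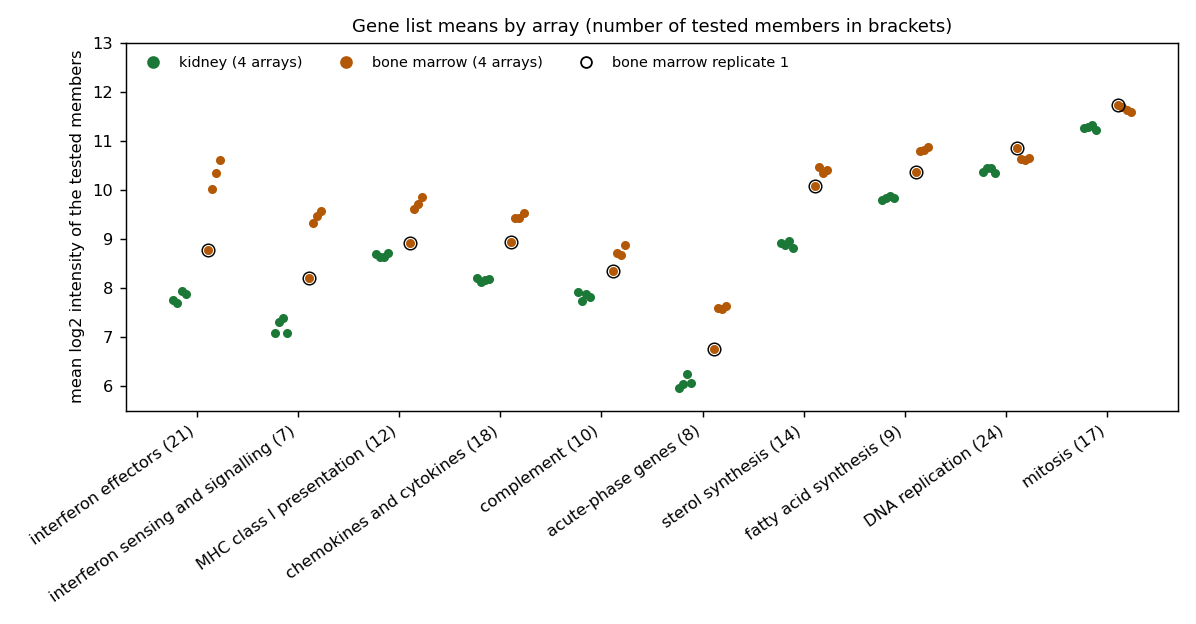
Mean normalised log2 intensity (y axis) over the tested genes of 10 lists (x axis) on each kidney and bone marrow array, with a ring around bone marrow replicate 1. For interferon effectors the kidney arrays lie at 7.70 to 7.95, bone marrow replicate 1 at 8.77 and the remaining ones at 10.03 to 10.61.

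Genes of sterol synthesis were lower in kidney cells as a block. Cells make cholesterol from acetyl-CoA by a chain of enzymes whose genes are switched on together by SREBP factors when membrane sterol is low. Of 14 tested genes 13 fell and none rose, 10 of them by at least 2-fold, with a median of -1.52. All 14 were detected on all 8 arrays. The list mean was 8.82 to 8.96 on the kidney arrays and 10.07 to 10.46 on the bone marrow arrays. Nsdhl, which removes carbon from the sterol ring, measured 7.99, 7.81, 7.99 and 7.84 in kidney cells and 10.06, 10.16, 10.13 and 10.05 in bone marrow MSC. Replicate 1 of the bone marrow group did not stand apart here (-2.19 ± 0.09, adjusted p = 2.08e-13). Mvd of the mevalonate steps (-2.16 ± 0.14), Cyp51 (-1.96 ± 0.12), Lss, lanosterol synthase (-1.95 ± 0.13), Fdps (-1.85 ± 0.09) and Sqle, squalene epoxidase (-1.54 ± 0.12) were lower as well. Insig1, the sterol sensor that holds SREBP back and is itself its target, fell by 1.72 (SE 0.11). Sc5d of the last steps did not pass (-0.11 ± 0.15, adjusted p = 0.585).

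Ch25h, cholesterol 25-hydroxylase, whose product is known to suppress SREBP, went the other way. It measured 11.95, 11.92, 12.19 and 12.29 in kidney cells and 7.80, 7.90, 7.72 and 7.73 in bone marrow MSC (4.30 ± 0.10, adjusted p = 1.66e-17). Of 9 tested fatty acid synthesis genes 7 fell and none rose (median -1.17), among them Scd1, a desaturase (-1.33 ± 0.12), and Acsl3, an acyl-CoA synthetase (-1.40 ± 0.10), while Fasn did not pass (0.02 ± 0.16, adjusted p = 0.931). Kidney cells were also lower than heart cells for Nsdhl (-1.22, adjusted p = 1.56e-09) and Fdps (-1.24, adjusted p = 4.95e-10). The exact letters TCACNCCAC were searched on both strands for the sterol regulatory element, after these values were seen. None of the 11 sterol genes with a window held them, and 408 of all 32817 windows did (1.24%). Other forms of the element were not searched. With so low a share over all windows, an absence from so few genes decides nothing about the element.

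Cell cycle genes were lower by small amounts. Of 24 tested DNA replication genes 13 fell and none rose (median -0.32), and of 17 tested mitosis genes 13 fell and 1 rose (median -0.45). Without bone marrow replicate 1, 12 DNA replication genes fell and 1 rose. Under median scaling the counts were 9 lower with 1 higher, and 11 lower with 1 higher. Top2a, the mitotic topoisomerase, measured 10.60, 10.89, 10.80 and 10.97 against 11.39, 11.44, 11.54 and 11.48 (-0.65 ± 0.10, adjusted p = 3.08e-05). Mcm5 of the replication helicase fell by 0.60 on the log2 scale (SE 0.10). Among 22 tested CDK inhibitors and p53 targets 13 rose and 4 fell. Cdkn1a, the inhibitor p21, rose by 0.79 ± 0.07 and Plk2, a p53-responsive kinase, by 2.27 ± 0.09. Cdkn2a, which encodes p16 and p19Arf, was lower, at 10.52 to 11.09 against 11.55 to 12.10 (-0.92 ± 0.12). Growth state at harvest is not given in the sources used here.

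Imprinted genes, which are read from the copy of 1 parent only and often set fetal growth, were mostly changed: of 10 tested 6 rose, 2 fell and 2 did not pass. Grb10, a growth-restraining adaptor, measured 14.16, 14.36, 14.30 and 14.44 in kidney cells and 10.29, 10.40, 10.73 and 10.63 in bone marrow MSC (3.80 ± 0.08, adjusted p = 1.66e-17). Peg3, a zinc-finger gene read from the father's copy, was at least 4.53-fold higher. Dio3, which inactivates thyroid hormone, had the largest fall of all 9610 genes, with 6.71, 6.996, 6.49 and 5.62 in kidney cells and 11.18, 12.10, 12.10 and 12.26 in bone marrow MSC (-5.46 ± 0.26, adjusted p = 1.24e-12). Its antisense neighbour Dio3os was at least 6.33-fold lower, and whether the 2 probes read separate transcripts was not tested. Dlk1 of the same imprinted region fell by only 0.88 on the log2 scale (SE 0.09). Kidney and bone marrow values did not overlap for any of these 5 genes.

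Further genes with large differences lay in several functions. Rgcc, a regulator of the cell cycle, measured 6.35, 6.17, 6.67 and 6.01 in kidney cells and 10.88, 11.78, 11.80 and 11.71 in bone marrow MSC (-5.24 ± 0.20, adjusted p = 5.37e-14). Slc1a3, a glutamate transporter, was lower (-3.93 ± 0.21), as were the kininogen gene Kng1 (-3.22 ± 0.23), the dipeptidase gene Dpep1 (-3.25 ± 0.12) and Gldc of glycine cleavage (-2.94 ± 0.17). Upward, Mgll, which breaks down monoglycerides and endocannabinoids, measured 10.02, 9.86, 9.60 and 9.67 in kidney cells and was on no bone marrow array (at least 17.4-fold higher, adjusted p = 2.83e-15). Jph2, which couples calcium stores to the surface membrane in muscle, was at least 15.6-fold higher by its brightest probe, while with only probes detected on all 8 arrays Jph2 differed by 0.32 ± 0.19 and did not pass (adjusted p = 0.169). Cck, the peptide cholecystokinin, was at least 13.6-fold higher. Satb1, a chromatin organiser, was on no bone marrow array and at least 11.99-fold higher. Ptprz1, a receptor phosphatase that pleiotrophin binds, measured 8.46 to 8.82 on 3 kidney arrays and more on replicate 4, and was on no bone marrow or heart array (at least 8.31-fold higher). Robo1, the receptor for slit guidance cues, rose by 3.96 ± 0.16, and Aldh1a1, which makes retinoic acid, was at least 3.60-fold higher, with Aldh1a3 also up (2.28 ± 0.15).

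**Figure D5:**
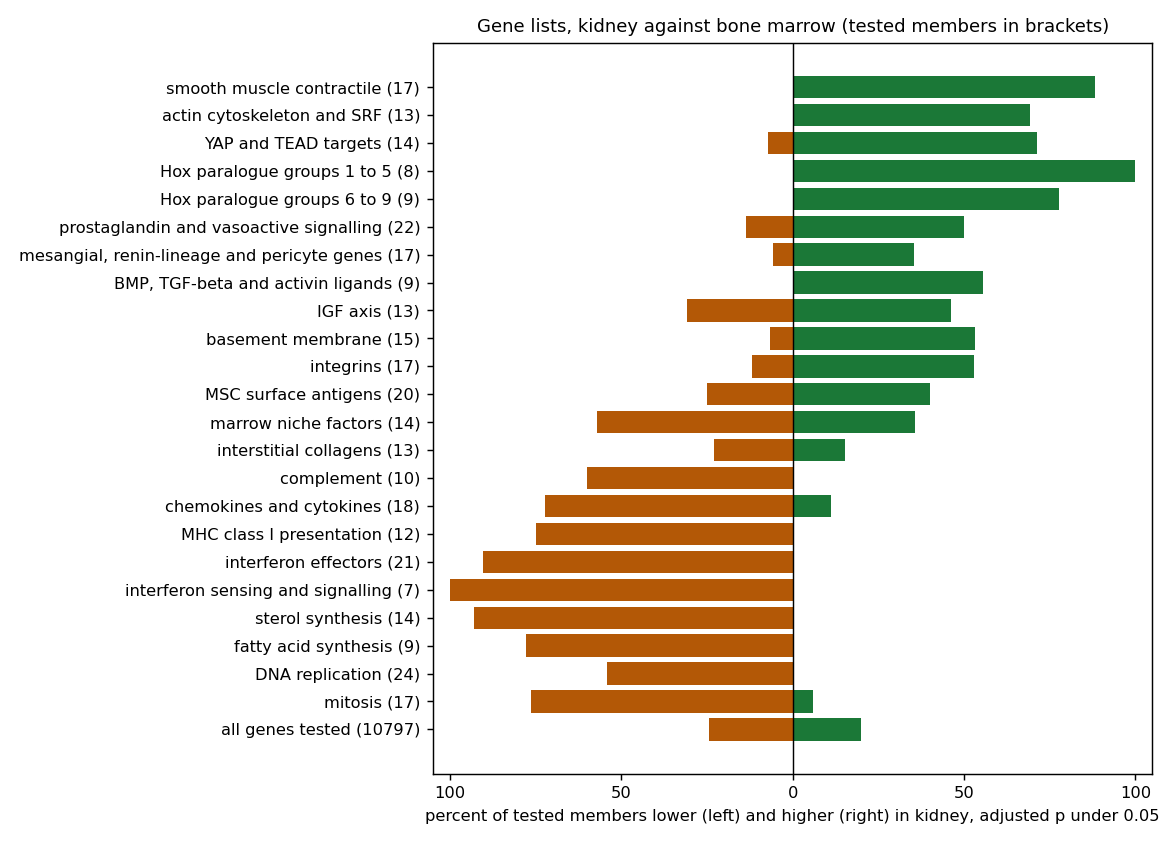
For 23 gene lists (y axis, with the number of tested genes in brackets) and for all genes tested, the share of tested genes (x axis, percent) that were higher in kidney cells (green, to the right) or lower (orange, to the left) at an adjusted p under 0.05. The contractile and low-numbered Hox lists extend almost wholly to the right and the interferon and sterol synthesis lists almost wholly to the left, beside 19.9% higher and 24.3% lower over all genes tested.

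Of the 527 genes at least 2-fold higher in kidney cells than in bone marrow MSC, 249 also exceeded heart cells past the threshold, and for 137 kidney and heart cells could not be told apart by the test. Of the 372 genes at least 2-fold lower, 233 were below heart cells as well, and 91 could not be told apart. Both comparisons use the same kidney arrays, so these counts describe where the kidney values lie and are no independent support. The kidney-heart test itself called 5290 of 10797 genes (49%).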

How the data were processed

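The deposited non-normalized table gives, per the file headers, an intensity and a detection value, the fraction used here as 1 minus a detection p, for each probe on each of 12 arrays. The authors' processed table was made with lumi, per the submitters' processing notes (version not given); its scale and centring are not stated, and it served as an alternative. In 45281 table entries, 6798 identifiers repeat, and their entries were kept apart as separate probes.

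Intensities were corrected with neqc in limma 3.58.1 (R 4.3.3; offset 16, quantile normalization, log2). Probes with a detection fraction above 0.95 on at least 4 arrays were kept (20649). GEO's platform annotation named 17315 of them, covering 10797 genes, and the brightest kept probe stood for its gene. One model over the 12 arrays (lmFit and eBayes with trend) gave log2 differences ± SE, with Benjamini-Hochberg adjustment over all genes. All adjusted p-values are limma's unless said otherwise. Where the dimmer group was undetected, or its mean lay under the dimmest detected signals, the fold is a lower bound against those signals, written "at least". The fit was tested on simulated data.

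Named genes are the 25 largest changes each way without overlap, and the most changed and the defining members of the gene lists. The members, lists and searched motifs were chosen with earlier results of these data known. Alternatives were no background correction, median scaling, the authors' values, 2 other detection filters, the mean of a gene's probes, 8 arrays only, array weights, a replicate block and leaving out each array. Probes with no gene name or several were not used.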

Additional observations from a re-analysis of the deposited data

Results flagged for a closer look

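Of 364 groups of 4 values among the named genes, 36 (9.89%) had 1 array far from the other 3 by Dixon's criterion, where chance gives about 1 in 20. Among the kidney arrays, Actg2 stood apart on replicate 2 (15.142), Cck stood apart on replicate 4 (9.788), Flt1 stood apart on replicate 2 (10.774), Fst stood apart on replicate 3 (11.097), Jph2 stood apart on replicate 2 (9.814), Parp14 stood apart on replicate 3 (6.528), Pdgfrb stood apart on replicate 1 (9.522) and Tagln stood apart on replicate 4 (13.125).

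Bone marrow replicate 1 was that array in 25 of the 36. Below its group were its log2 intensities of Angpt1 (6.322), Bmper (9.698), Cxcl10 (7.946), Cyp51 (11.777), Dio3 (11.18), Dio3os (7.548), Dpep1 (10.566), Ednrb (5.575), Hgf (11.402) and Hoxa10 (6.488). Also low were Hp (8.113), Irf9 (10.062), Kng1 (10.609), Lpl (13.127), Lss (10.665), Mylk (6.604), Rgcc (10.884), Rsad2 (8.711), Slc1a3 (9.344), Tgfbi (13.158) and Upk1a (5.254). Above its group were Cck (5.456), Hoxb2 (5.914), Inhba (13.095) and Timp3 (11.879). Without that array the difference between kidney cells and bone marrow MSC kept its side of the threshold for each of these genes. Those past the threshold also kept their direction. Upk1a did not pass either way, and its direction was not compared. Among the other bone marrow arrays, Eng stood apart on replicate 2 (10.54), Myocd stood apart on replicate 4 (5.692) and Sc5d stood apart on replicate 2 (7.232). The cause was not tested.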

How the results depend on the processing

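With no background correction, 322 genes were at least 2-fold higher and 204 at least 2-fold lower in kidney cells, against 529 and 384 as reported over all genes tested. Median scaling left 1600 genes lower, against 2619, with 2457 higher. With only probes detected on all 8 arrays, 321 genes of 8702 were at least 2-fold higher. That setting leaves out probes not detected on every bone marrow array. Of the 527 genes at least 2-fold higher among the 9610, 206 were detected on all kidney arrays but not on every bone marrow array. The cause of the other shifts was not tested. Leaving out each array in turn gave 4244 to 5020 genes past the threshold, 1937 to 2256 higher and 2307 to 2764 lower. At least 2-fold higher were 516 to 545 and lower 367 to 425, and 4904 to 5691 differed between kidney and heart cells.

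Replicate numbers did not pair the arrays: deviations of same-numbered kidney and bone marrow arrays correlated at 0.1334, -0.0767, 0.0103 and 0.0758. With the replicate number as a block, 4737 genes passed (2139 higher, 2598 lower), against 4769 without it.

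For the 182 named genes, 3008 of 3024 alternative values kept their side of the threshold. No gene that passed as reported or in the alternative changed direction. Where neither passed, direction was not compared. Hes1 no longer passed under median scaling (adjusted p = 0.0864), nor Jph2 with only probes detected on all 8 arrays (0.32, adjusted p = 0.169). Acta2, Cd44 and Pdgfrb, which did not pass as reported, passed in 14 values, all 3 of them without bone marrow replicate 1. The 4 arrays a group limit the precision, and genes below background in 1 group have only a bound.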

Other observations

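The 6 genes of cornified and urothelial surfaces given here were in no list and were picked because they were high in kidney cells. Scel, the cornified-envelope precursor sciellin, measured 9.13, 9.18, 9.02 and 9.35 in kidney cells and was on no bone marrow array (at least 11.4-fold higher, adjusted p = 5.49e-15). Krt20, a keratin of urothelium and gut, measured 8.28 to 8.73 against 5.30 to 5.77, detected on 2 of the 4 bone marrow arrays (at least 7.09-fold higher), and Sprr2k, a small proline-rich envelope protein, 9.33 to 9.49 against 5.45 to 7.09 (3.12 ± 0.26, adjusted p = 5.96e-09). Sprr1a (2.34 ± 0.19), Sprr2g (at least 2.65-fold) and Lor, loricrin (at least 2.37-fold), were also higher. Scel, Krt20 and Sprr1a, detected on all heart arrays, exceeded heart cells by 2.78, 2.15 and 2.06 on the log2 scale, while Sprr2g was on no heart array and Sprr2k and Lor on 1 each. Upk1a, a partner of the Upk1b described above, had overlapping values (0.07 ± 0.26, adjusted p = 0.858). The part of other cells in these values was not tested.

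A few muscle genes outside the contractile list were picked because they were high in kidney cells, so they say nothing of muscle genes as a group. Acta1, the skeletal muscle actin, measured 12.11, 11.80, 11.77 and 12.07 in kidney cells and 8.28, 7.93, 8.14 and 7.81 in bone marrow MSC (3.90 ± 0.12, adjusted p = 3.01e-15). Kcnmb1, the smooth muscle subunit of a calcium-gated potassium channel, was on all kidney arrays, at 7.50 to 8.05, and on no bone marrow or heart array (at least 4.43-fold higher). Ppp1r14a, which holds myosin phosphatase back, was at least 5.98-fold higher and Asb2, a ubiquitin ligase subunit that targets filamins, at least 10.96-fold. Rps4l, a ribosomal protein gene copy, measured 8.56 to 9.06 in kidney cells and 9.11 ± 0.05 (SD, n = 4) in heart cells but was on no bone marrow array (at least 9.27-fold higher). Of all 48 tested cytosolic ribosomal protein genes 3 were higher and 10 lower, against 19.9% and 24.3% over all genes tested.

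Among the largest differences not described above, Ccdc68 stood at least 28.4-fold above bone marrow MSC in kidney cells. Brinp1 (at least 16.8-fold), C1qtnf3 (at least 14.3-fold), Nptx2 (at least 11.3-fold), 3110040M04Rik (at least 10.2-fold) and Tnik (at least 8.35-fold) were higher too, as were Cobl (4.20 ± 0.14) and Rasl11b (4.15 ± 0.10). Tnik and Cobl each had 1 further kept probe, which did not pass the test. Lower in kidney cells were Olfml3 (-3.23 ± 0.16), Parp14 (-3.03 ± 0.36), Gbp3 (-3.02 ± 0.39), Kng2 (-2.94 ± 0.23) and Gsc, goosecoid (at least 6.45-fold).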
